A study of Rattus norvegicus with 18 samples.

Results

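The comparison described here is that of the prelimbic cortex (PL) of rats 6 d after inhibitory avoidance training with the PL of rats 1 h after the same training, across all genes. It took the 3 libraries labelled as trained and killed at 6 d and the 3 labelled as trained and killed at 1 h, which made 6 of the 18 libraries of the series. The 3 PL libraries of naive rats, which stayed untrained in the home cage, gave the baseline. All groups were adult Long-Evans rats, an outbred strain, and the labels name no genotype, drug or other agent. Each pool held the RNA of 5 rats, so a group stood for 15 rats but gave only 3 values per gene, and the spread between single animals was not measured. The same design was applied to the dorsal hippocampus (dHC), used here only to show how the PL genes behaved in a second region.

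The PL is a dorsal part of the rodent medial prefrontal cortex, which receives input from the hippocampus and is connected with the amygdala and the thalamus. In inhibitory avoidance a rat receives a foot shock in a place and afterwards holds back from entering it, so a single session leaves a lasting memory. In neurons, strong synaptic activity first switches on immediate-early genes, whose transcripts are made without prior protein synthesis and are mostly short-lived, and their products then act on later genes. Setting 6 d against 1 h asks which transcripts differ between an early and a late time after learning, with training common to both groups.

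The tables pair no gene name with the Ensembl gene IDs, and 0 of the 32662 IDs matched the reference table used here. Genes are therefore described by class, with values for 2 IDs that were higher at 6 d and 2 that were lower, and roles of single genes, pathway lists and markers of cell types or of the dissected tissue are not given. In such bulk tissue, a smaller number of cells of a type and less RNA per cell cannot be told apart.

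Reads assigned to genes numbered 7463875 to 9215695 per PL library. The first principal component of the 9 PL libraries, with 24.2% of the variance, placed the 6 d pools between −16.8 and −4.87 and the 1 h pools between 15.7 and 18.4. Naive pools lay between −10.5 and −5.53, within the range of the 6 d pools. The 6 d pool 1 stood farthest from the 1 h pools, and counts without it are given beside the results that it moved. Among 6 measures of depth and read assignment, a pair separated the groups completely. Reads aligned outside gene models made up 12.8% ± 0.731 at 6 d and 11.6% ± 0.957 at 1 h (SD, n = 3 each), and reads matching several genes at once 0.626% ± 0.0324 at 6 d and 0.666% ± 0.00265 at 1 h (SD, n = 3 each). Each gave p = 0.1 in a two-sided exact permutation test, the smallest p that 3 pools against 3 allow, and an adjusted p of 0.3 over the 6 measures.

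At 6 d, 166 genes were higher and 151 lower than at 1 h, of 14318 tested (edgeR quasi-likelihood test, Benjamini-Hochberg adjusted p under 0.05, referred to as called). This was 2.21% of the genes tested, 1.16% higher and 1.05% lower. The called genes that were higher at 6 d had a median log2 fold change, 6 d over 1 h, of 0.45, and those that were lower a median of −0.53, against 0.00 over all genes tested. Changes of more than 2-fold were unequal in direction, with 5 genes higher at 6 d (0.0349% of genes tested) and 30 lower (0.21%). The 6 d and 1 h pools did not overlap in 314 of the 317 called genes, and in 20% of all genes tested (9.99% with 6 d higher and 9.99% with 6 d lower). The mean levels of called genes ran from 0.976 to 1280 CPM among those higher and from 1.03 to 1391 CPM among those lower at 6 d, where CPM is the gene's count scaled to the same library size in every pool. Over all genes tested they ran from 0.599 to 4155 CPM.

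**Figure D1:**
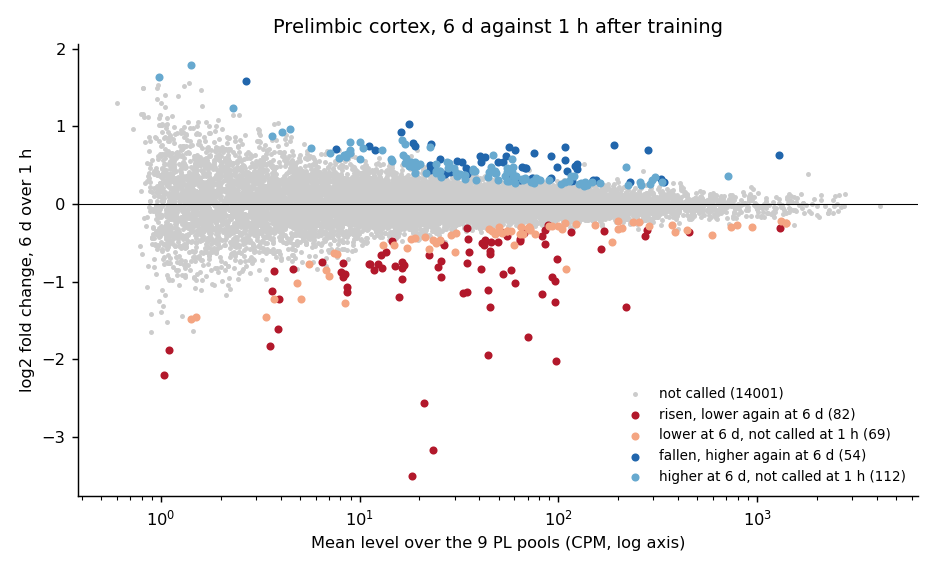
Log2 fold change of every tested gene, 6 d over 1 h in PL, against its mean level over the 9 PL pools (CPM, log axis); colours mark the 4 classes of called genes and grey the genes not called. The falls of more than 2-fold are mostly dark red, the 82 genes that had risen at 1 h, while most genes higher at 6 d lie between log2 changes of 0.24 and 1.

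The count moved with the libraries. It was 149 to 358 when each PL pool was left out in turn, and the 3 lowest values came with a 1 h pool left out (151 without pool 1, 149 without pool 2 and 190 without pool 3). Without 1 h pool 1, 49 genes were higher and 102 lower, and without 1 h pool 2, 61 were higher and 88 lower. With the share of reads outside gene models as a covariate the count was 183, with 74 higher and 109 lower.

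**Figure D2:**
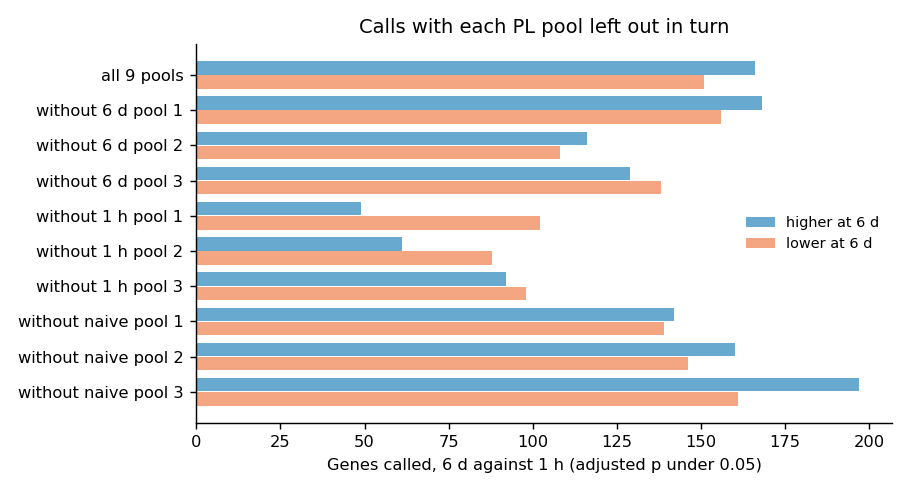
Number of genes called higher (blue) and lower (orange) at 6 d than at 1 h in PL, with all 9 pools and with each pool left out. Leaving out any 1 h pool brings the total to between 149 and 190, from 317 with all pools.

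Genes that had risen at 1 h came down by 6 d. Against naive PL, 206 of the 14318 genes had been called at 1 h (1.44%). Of these, 112 were higher at 1 h, 0.782% of those tested, and 82 of them (73.2%) were called lower at 6 d than at 1 h. None of the 112 was called higher still. The 82 genes had a median log2 fold change of 0.71 for 1 h over naive, of −0.78 for 6 d over 1 h and of −0.05 for 6 d over naive. These comparisons share the 1 h or the naive libraries, so the counts are given as a description. By pool, the median log2 level of the 82 genes relative to the naive mean was −0.06, −0.06 and −0.02 in the 6 d pools, against 0.66, 0.74 and 0.76 in the 1 h pools. The naive pools themselves lay between −0.02 and 0.00. That the 6 d pools lie below the 1 h pools is fixed by how the 82 genes were chosen. By size of the first rise, 18 of 24 genes that had risen more than 2-fold were called lower again. So were 42 of 52 that had risen between 1.41-fold and 2-fold, and 22 of 36 that had risen less. The same 1 h libraries gave the rise and the fall, so these counts too are a description.

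The gene with the largest fall was ENSRNOG00000000640. It had 2.12, 5.78 and 4.77 CPM in the 6 d pools, against 48.9, 43.4 and 49.2 CPM in the 1 h pools. The naive pools had 3.65, 4.22 and 2.68 CPM, so the 6 d pools overlapped the naive pools and lay far below all 1 h pools. The log2 fold change, 6 d over 1 h, was −3.50 (SE 0.18, edgeR adjusted p = 6.27e-12) and stayed called in all 16 alternatives, between −3.77 and −3.16. For 6 d over naive it was 0.23 (SE 0.27, edgeR adjusted p = 0.999).

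For 30 of the 112 risen genes the difference between 6 d and 1 h was not called. Their 6 d means were all below their 1 h means, with a median log2 fold change of −0.38, 6 d over 1 h. An unadjusted p under 0.05 was found for 29 of the 30, against 15.7% of all genes tested. Choosing genes for a rise at 1 h favours both results, since the same 1 h libraries are used, so nothing is read from them. Against naive the 30 genes stood at a median of 0.15 at 6 d, in a range of 0.03 to 1.03. An unadjusted p under 0.05 was found for 5 of them, where 3.47% of all genes had one. None was called against naive at 6 d. The split by call favours a level above naive in the 30 and a lower one in the 82, so nothing is read from that share. Over all 112 risen genes the median for 6 d over naive was −0.002, with 56 above and 56 below naive. The 30 were expressed at a lower level than the 82, with median mean levels of 20.1 CPM in the 30 and 34.8 CPM in the 82. The 6 d pools were not alike in these genes, and choosing genes without a call favours those whose 6 d pools differ. Pool 1 had a median log2 level of 0.00 relative to the naive mean, within the naive pools, while pools 2 and 3 had 0.24 and 0.21, between the naive and the 1 h pools. The 1 h pools had 0.52, 0.55 and 0.57. Without 6 d pool 1, 251 genes were called higher at 1 h and 92 of them (36.7%) were called lower again. With all pools these were 112 and 82, so the share was lower because more genes were called at 1 h, not because fewer returned.

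Genes that had fallen at 1 h were higher again at 6 d, with smaller changes. Against naive PL, 94 genes had been called lower at 1 h, 0.657% of those tested, and 54 of them (57.4%) were called higher at 6 d than at 1 h. None was called lower still. The 54 genes had a median log2 fold change of −0.50 for 1 h over naive, of 0.52 for 6 d over 1 h and of 0.01 for 6 d over naive. By pool, their median log2 level relative to the naive mean was 0.09, −0.02 and 0.01 in the 6 d pools, against −0.52, −0.48 and −0.41 in the 1 h pools. The 6 d pools lay among the naive pools, which ran from −0.03 to 0.03, or just above them. That they lie above the 1 h pools is fixed by how the 54 genes were chosen. As for the risen genes, the comparisons share libraries, so the counts are given as a description. The 54 genes were more highly expressed than the returning risen genes, with a median mean level of 56.8 CPM.

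Among them the largest rise was that of ENSRNOG00000025587. It had 3.68, 3.15 and 3.86 CPM in the 6 d pools, against 1.58, 1.06 and 0.915 CPM in the 1 h pools. The naive pools, at 4.65, 2.89 and 2.32 CPM, were spread around the 6 d values and above all 1 h values. The log2 fold change, 6 d over 1 h, was 1.58 (SE 0.32, edgeR adjusted p = 0.00866). It rested on 24 to 34 counts per 6 d pool and 8 to 14 per 1 h pool. The call was lost without 1 h pool 2 (edgeR adjusted p = 0.0559) and without 1 h pool 3 (edgeR adjusted p = 0.0580). The adjusted p of the 15 edgeR alternatives spanned 7.88e-05 to 0.0580, and DESeq2 gave no adjusted p for this gene.

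The remaining 40 fallen genes were not called between 6 d and 1 h. Their 6 d means were all above their 1 h means, with a median log2 fold change of 0.30, 6 d over 1 h. At 6 d they stood at a median of −0.12 against naive, in a range of −0.68 to −0.03. The split by call favours a level below naive in these 40 and a higher one in the 54. Over all 94 fallen genes the median for 6 d over naive was −0.06, with 31 above and 63 below naive. Here too the pools differed, which choosing genes without a call likewise favours. The median log2 level relative to the naive mean was −0.01 in 6 d pool 1 and −0.18 in both other 6 d pools, against −0.41, −0.46 and −0.43 in the 1 h pools. Naive pool 3, at −0.17, lay with 6 d pools 2 and 3, while naive pools 1 and 2 were at 0.07 and 0.09. Without 6 d pool 1, 323 genes were called lower at 1 h and 66 of them (20.4%) were called higher again. With all pools these were 94 and 54, so here too the number returning was not smaller without that pool.

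**Figure D3:**
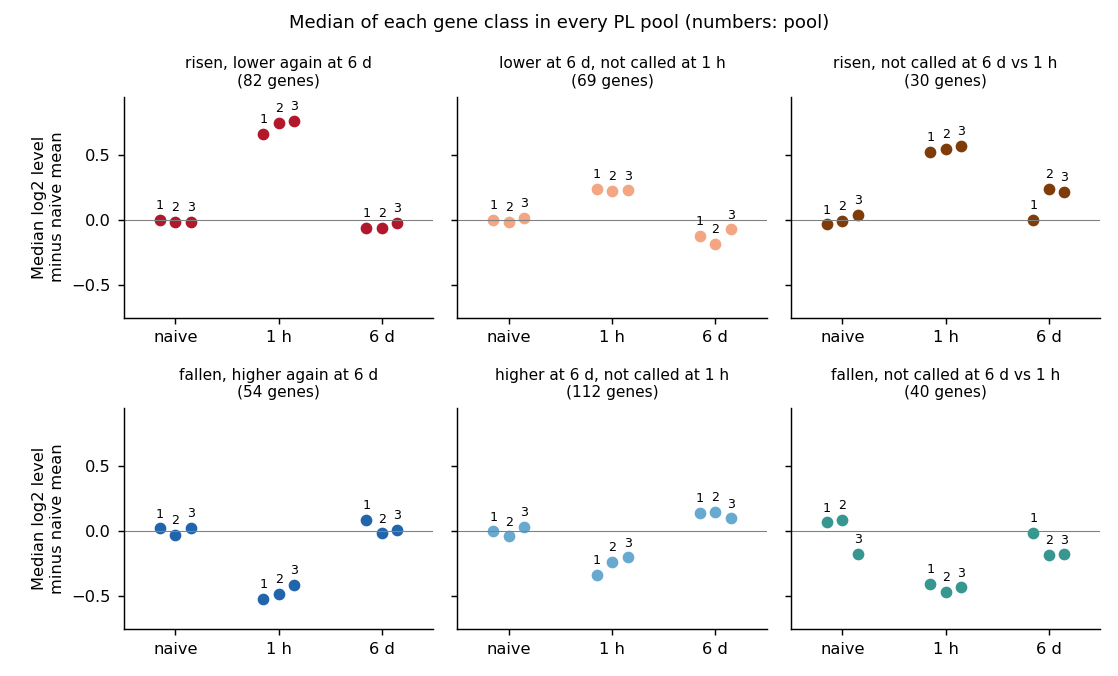
Median log2 level (prior count 2) of 6 gene classes in every PL pool, relative to the mean of the naive pools; numbers give the pool and each panel names its class and number of genes. In the returning classes the 6 d pools lie at the naive level, and in the classes that separate the times beyond it, away from 1 h. The choice of the separating classes by itself favours naive pools in between. Among risen and fallen genes not called between the times, 6 d pool 1 lies apart from pools 2 and 3. Choosing genes without a call favours those whose 6 d pools differ.

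Both the numbers of returning genes and their shares depended on single pools. Without 6 d pool 1, 574 genes were called between 1 h and naive, 251 higher and 323 lower, against 206 with all pools. Of these, 92 of the 251 (36.7%) and 66 of the 323 (20.4%) then returned, against 82 and 54 genes with all pools. The numbers returning thus rose while the shares fell. A 6 d pool enters the comparison of 1 h with naive only through the shared fit. The share of risen genes called lower again was 73.2% with all pools and ran from 36.7% without 6 d pool 1 to 92.4% without 1 h pool 1 (61 of 66). Between these were 76 of 120 without 6 d pool 2, 48 of 58 and 45 of 52 without 1 h pools 2 and 3, and 53 of 60 without naive pool 2. The share of fallen genes called higher again was 57.4% with all pools and ran from 20.4% without 6 d pool 1 to 86.8% without naive pool 2 (33 of 38). Between these were 58 of 154 without naive pool 3, 60 of 116 without 6 d pool 2, 19 of 32, 18 of 31 and 24 of 35 without 1 h pools 1, 2 and 3, and 26 of 30 without naive pool 1.

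A further class separated the times without having been called at 1 h. Of the 317 genes, 181 (57.1%) were not among the genes called between 1 h and naive, 112 of them higher and 69 lower at 6 d. The median log2 fold change, 6 d over 1 h, was 0.41 among the higher and −0.36 among the lower. Of the 181, 10 differed more than 2-fold between the times. Not being called at 1 h did not mean a level equal to naive. The smallest adjusted p for 1 h against naive was 0.0579 among the higher and 0.0521 among the lower, and 40 of the 181 were under 0.1. An unadjusted p under 0.05 for 1 h against naive was found for 150 of the 181, against 15% of all genes tested, though both comparisons use the 1 h libraries, so nothing is read from that share.

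The fitted naive mean was between the 1 h and the 6 d mean for 179 of the 181, beyond the 6 d mean for 2 and beyond the 1 h mean for 0. Over all genes tested it was between them for 5604 of 14318. The class was chosen for a wide gap between 6 d and 1 h and a narrower one between 1 h and naive, which by itself favours a naive level in between, so the count is only a description. The naive mean was nearer to the 1 h mean for 34 and nearer to the 6 d mean for the rest. The 112 genes higher at 6 d had a median log2 fold change of −0.27 for 1 h over naive and of 0.13 for 6 d over naive. For the 69 lower at 6 d these were 0.24 and −0.14. At 6 d against naive, 27 of the 112 and 20 of the 69 had an unadjusted p under 0.05, against 3.47% of all genes tested, and none was called; the genes were chosen on the same 6 d libraries. Against naive, 2 of the 181 had an unadjusted p of 0.05 or more at both times. The wide gap between the times for which the genes were chosen makes such genes few, so nothing is read from this count.

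By pool, the 112 genes had median log2 levels relative to the naive mean of 0.15, 0.15 and 0.10 in the 6 d pools, against −0.34, −0.23 and −0.20 in the 1 h pools. Naive pools lay between −0.04 and 0.03, below all 6 d pools and above all 1 h pools. The 69 genes had −0.12, −0.18 and −0.07 in the 6 d pools, against 0.24, 0.22 and 0.23 in the 1 h pools. Naive pools lay between −0.01 and 0.02, again between the trained groups. The choice of both classes by itself favours this order, so nothing is read from it. The number of 181 was 71 of 151 called genes without 1 h pool 1, 83 of 149 without 1 h pool 2 and 88 of 224 without 6 d pool 2. It was 109 of 297 when each comparison was fitted on its own groups, and 50 of 183 with the share of reads outside gene models as a covariate, an alternative chosen after seeing the data. The class was thus a majority of the called genes with all pools and a minority in 4 of these 5 fits. These fits include all those that made it a minority. In every other alternative it was a majority, from 50.5% without a filter on low counts to 71.9% without naive pool 2. The 82 risen and 54 fallen genes that returned were 82 and 51 with that covariate, which are 60.7% and 31.7% of the genes then called higher and lower at 1 h.

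The largest changes in this class were in genes of low count. ENSRNOG00000047123 had 2.68, 1.84 and 2.73 CPM in the 6 d pools, against 0.452, 0.470 and 1.14 CPM in the 1 h pools. The naive pools had 1.66, 1.11 and 0.732 CPM, below all 6 d pools and overlapping the 1 h pools. The log2 fold change, 6 d over 1 h, was 1.80 (SE 0.40, edgeR adjusted p = 0.0171), from 14 to 24 counts per 6 d pool and 4 to 10 per 1 h pool. For 1 h over naive it was −0.76 (SE 0.46, edgeR adjusted p = 0.470) and for 6 d over naive 1.04 (SE 0.36, edgeR adjusted p = 0.999). The call between the times was lost without 1 h pool 1 or 2, without 6 d pool 3 and with the covariate. In these fits the edgeR adjusted p was 0.117, 0.1, 0.0590 and 0.130. The adjusted p of the 15 edgeR alternatives spanned 0.000818 to 0.130, and DESeq2 gave no adjusted p for this gene.

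ENSRNOG00000008706 went the other way. It had 0.781, 0.788 and 0.795 CPM in the 6 d pools, against 1.47, 2.47 and 2.74 CPM in the 1 h pools. The naive pools had 1.55, 0.777 and 1.46 CPM, overlapping both. The log2 fold change, 6 d over 1 h, was −1.48 (SE 0.38, edgeR adjusted p = 0.0403), from only 6 to 7 counts per 6 d pool and 13 to 24 per 1 h pool. The edgeR adjusted p rose to between 0.0506 and 0.170 without naive pool 1, 1 h pool 2 or 3, or any 6 d pool. The adjusted p of the 15 edgeR alternatives spanned 0.0104 to 0.170, and DESeq2 gave no adjusted p for this gene.

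**Figure D4:**
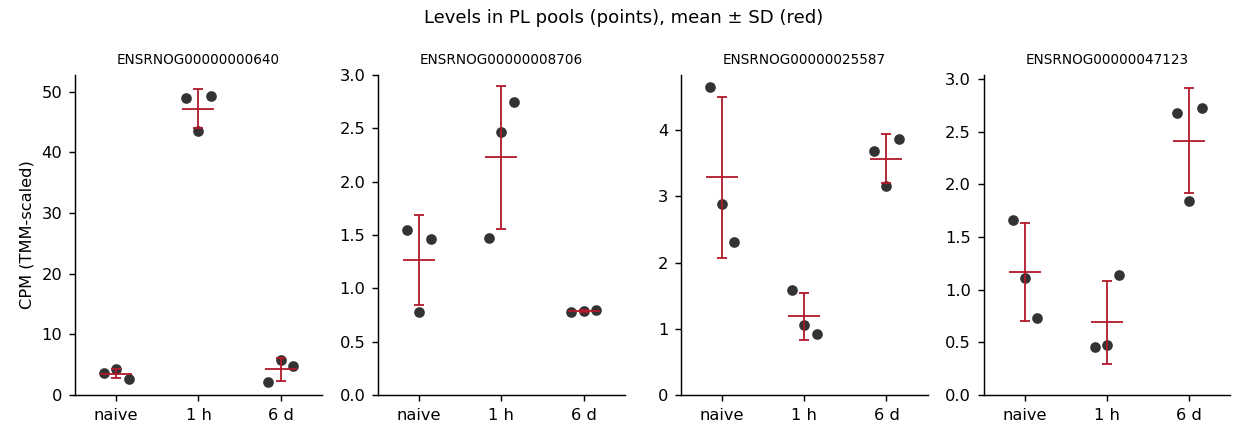
CPM of the 4 genes given by ID in each PL pool (points) at naive, 1 h and 6 d, with mean and SD in red (n = 3) and an axis from 0 for each gene. ENSRNOG00000000640 and ENSRNOG00000025587 are back among the naive values at 6 d, while ENSRNOG00000047123 lies above them.

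The genes called in PL were then followed in dHC, whose libraries were not used in the PL comparison. The labels do not say whether the PL and dHC pools came from the same rats. Since the genes were chosen for passing the threshold in PL, smaller changes in dHC are favoured by that choice alone. In dHC, 58 genes were higher and 100 lower at 6 d than at 1 h, 1.1% of 14305 tested. This number was 40 without 6 d pool 2, 343 without 6 d pool 3, 29 without 1 h pool 1 and 18 without 1 h pool 3 of dHC. Of the 82 risen genes that returned in PL, 71 had a lower mean at 6 d than at 1 h in dHC and 22 were called lower there (26.8%, where 0.699% of dHC genes were). Their median log2 fold change, 6 d over 1 h, was −0.32 in dHC. Of the 54 fallen genes that returned in PL, 45 had a higher mean at 6 d in dHC and 2 were called higher (3.7%, where 0.405% of dHC genes were), with a median of 0.26.

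The genes that separated the times in PL without a call at 1 h were followed in the same way. Of the 69 that were lower at 6 d in PL, 54 had a lower mean at 6 d in dHC, with a median log2 fold change of −0.16. There 9 were called lower (13%, where 0.699% of dHC genes were). Of the 112 that were higher, 110 were tested in dHC and 99 of these had a higher mean at 6 d there, with a median of 0.18. Of the 110, 0 were called, where 0.405% of dHC genes were called higher. In that class 31 genes had an unadjusted edgeR p under 0.05 and a higher mean in dHC, and over all genes tested in both regions 962 of 13905 did. Over these 13905 genes the median was 0.00, with 7035 means higher at 6 d.

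Whether the change between the times differed between the regions was tested directly, as the PL change minus the dHC change in a fit of all 18 libraries. Of 14784 genes, 39 were called (0.264%), 16 with the more positive change in PL (0.108%) and 23 with the more negative (0.156%). Among the 317 genes called in PL, 18 differed between the regions, 17 of them lower and 1 higher at 6 d in PL. The 17 included 16 of the 82 returning risen genes, all with the more negative change in PL, a direction that their choice by a fall in PL favours. In these 16 the log2 fold change, 6 d over 1 h, ran from −3.18 to −0.36 in PL and from −1.35 to 0.87 in dHC, and the difference from −1.82 to −0.44. In dHC 6 of the 16 were called lower as well, and 5 had a mean that was higher at 6 d. For none of the 54 returning fallen genes was the difference called. An unadjusted edgeR p under 0.05 for it was found for 18 of the 54 and 53 of the 82, against 8.39% of all genes tested. Choosing both classes by their PL change favours such values. The difference was called for 1 of the 112 and 1 of the 69 genes that separated the times.

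The count of 39 fell to 24 and 18 without PL 1 h pools 2 and 3, to 25 and 13 without PL 6 d pools 2 and 3, to 20 without dHC 6 d pool 2 and to 14 and 12 without dHC 1 h pools 1 and 3. It was 44 with DESeq2. ENSRNOG00000000640 fell to 0.565 ± 0.186 CPM at 6 d in dHC, against 5.87 ± 0.655 CPM at 1 h (SD, n = 3 each), with only 3 to 6 counts per 6 d pool. The log2 fold change there was −3.34 (SE 0.30, edgeR adjusted p = 8.32e-06), and the difference between the regions was −0.16 (SE 0.60, edgeR adjusted p = 0.974). ENSRNOG00000025587 had a log2 fold change of −0.29 in dHC (SE 0.31, edgeR adjusted p = 0.733), and its difference of 1.87, PL minus dHC, was not called (SE 0.48, edgeR adjusted p = 0.117).

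**Figure D5:**
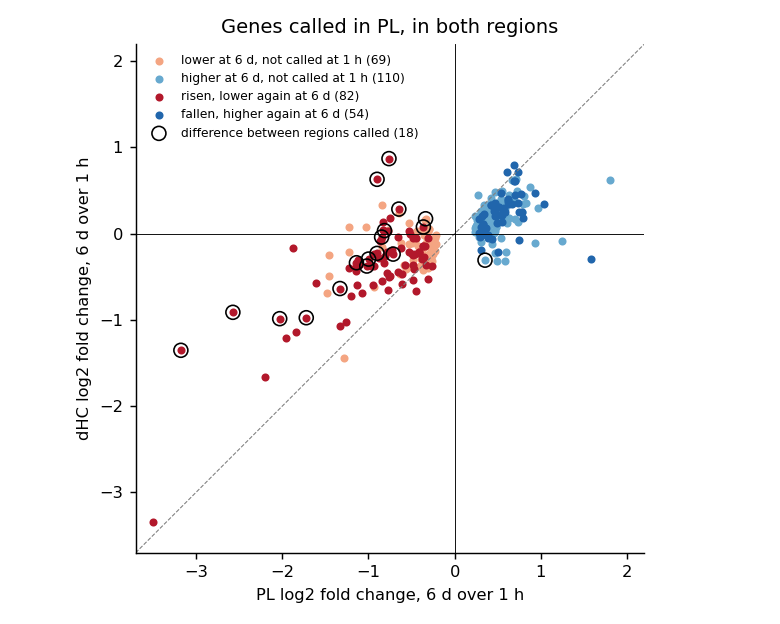
Log2 fold change, 6 d over 1 h, in dHC against PL for the genes called in PL and tested in dHC, coloured by class; the dashed line marks equal change and black rings the 18 genes whose difference between the regions was called. Most points keep their sign in dHC and lie nearer to 0, which the choice of genes by their PL change favours, and 16 of the rings are on returning risen genes.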

How the data were processed

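Per the labels' protocols, RNA of punched frozen tissue was pooled, and polyadenylated RNA was sequenced in pairs from a stranded kit. The deposited values are counts of reads per Ensembl gene, not normalized. The submitters' processing notes name Rnor_6.0, Picard 1.126, bedtools 2.17.0 and DESeq2, without roles. The sources used here do not give aligner, counter or strand setting, so overlapping, antisense and near-identical genes are uncertain. The labels call pools independent and name no batch.

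The 5 rows of unassigned reads were left out of tests. A count of 3 equals 0.326 to 0.402 CPM in PL, covering counting error only. All 9 pairs of PL replicates differed beyond sampling noise (chi-square per degree of freedom 1.67 to 4.98). The test was that of edgeR 4.0.16 under R 4.3.3, with glmQLFit and glmQLFTest on counts scaled by TMM and filtered by filterByExpr on the groups; the script was tested on simulated data. Each region's 9 libraries were fitted together, and the difference between regions used all 18. Standard errors come from the F statistic.

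Classes, IDs and lists were chosen with earlier results of these data known. IDs given are the largest log2 changes per direction among called genes whose higher group averaged 1 CPM or more and whose pools do not overlap. They were limited to 2 a direction, because 0 IDs matched a symbol; taking them from the genes called and not called at 1 h was decided after values were seen. The 35 gene lists, 13 of them markers, were not tested for the same reason. Alternatives were DESeq2 1.42.0, RLE size factors, no filter on low counts, other sets of libraries, a replicate block, a covariate and each pool left out.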

Additional observations from a re-analysis of the deposited data

Results flagged for a closer look

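A difference between regions in the change from 1 h to 6 d singled out 39 genes (edgeR test of PL minus dHC, adjusted p under 0.05, of 14784 tested). Of these, 21 were not called in PL itself, and 14 of the 21 were called between 6 d and 1 h in dHC, 10 lower and 4 higher at 6 d. The other 18 were called in PL, 6 of them in both regions. The count ran from 12 to 44 over 12 fits that each left out a pool.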

How the results depend on the processing

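Of 195 values recomputed under the alternatives, 49 counts moved by more than 1.5 times or away from 0. A further 12, values of single genes, lost their call. Counts have no direction to turn. Only the log2 changes of the genes given by ID and the difference in the share of reads outside gene models could turn. Of these, 0 did, but the IDs were chosen for the largest changes, which favours that result, so nothing is read from it. The main counts were 317 genes called between 6 d and 1 h in PL, 82 risen and 54 fallen genes returning, 181 separating genes, 206 called at 1 h against naive, 0 at 6 d against naive, 158 in dHC and 39 for the difference between regions. Without a filter on low counts these were 675, 164, 170, 341, 564, 8, 623 and 172. With DESeq2, 35 fallen genes returned; of its 251 calls between 6 d and 1 h, 3 higher and 14 lower were not among those of edgeR. With only the groups compared, the calls at 1 h were 546, the returning fallen genes 86 and the separating genes 109. With all 18 libraries in 1 fit, 30 fallen genes returned. With the no-feature share (reads outside gene models) as covariate, 183 genes were called between 6 d and 1 h and 50 were separating. At 6 d against naive, the 0 genes called by edgeR compare with 497 at an unadjusted p under 0.05, and DESeq2 called 0. The causes of these moves were not tested.

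Correlations over genes between same-numbered 6 d and 1 h pools of PL were 0.0393, 0.0178 and −0.0239. Between pools of unlike number they ran from −0.0588 to 0.0445. With 3 pools a group, and naive and dHC pools not included, these values cannot show whether the numbers pair the pools. A replicate block gave 423 calls between 6 d and 1 h, 312 at 1 h against naive and 549 in dHC. Without the block these were 317, 206 and 158. With a pool left out in turn, the ranges were 149 to 358 genes between 6 d and 1 h, 45 to 92 and 18 to 66 returning, 71 to 232 separating, 87 to 574 at 1 h against naive, 0 to 1 at 6 d against naive, 18 to 343 in dHC, 12 to 44 for the difference, and 0.677 to 1.53 percentage points for the 6 d minus 1 h no-feature share. Fits with a pool left out have fewer samples. Depth limits the genes under about 1 CPM, where a pool held fewer than 10 counts. At 6 d against naive, the 95% interval lay within a log2 change of 0.5 for 73.3% of genes.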
